A study of Mus musculus with 8 samples.

Results

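Interferon-stimulated genes were followed across all libraries of a bulk RNA sequencing study of mouse Langerhans cells, the dendritic cells that reside in the epidermis. The set was a named list of 45 genes known to respond to interferon, chosen by symbol. Earlier results of these data were known when the list was chosen. Of these, 44 were found among the 25247 genes of the count table. Ifi44 was not analysed here.

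The cells were sorted from ear skin of C57BL/6 mice that were either wild type (WT) or lacked EZH2, the histone methyltransferase of Polycomb repressive complex 2 (labelled EZH2 KO, abbreviated KO). All libraries shared 1 sort, of live cells positive for CD45, MHC class II, CD24 and EpCAM and negative for Ly6G and CD103, and no group received a treatment according to the labels. The labels gave no age, no Cre driver or cell type of deletion, and no statement on pooling of animals. Since they also left unsaid which animals each library came from, the p-values measure only how far these libraries spread, which may be technical.

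The genotype of 4 of the 8 libraries was disputed. Each library carried a code, and sample titles and sample descriptions assigned the codes differently. Titles and descriptions both gave WT for RMN030 and RMN031 and KO for RMN038 and RMN039. For RMN032 and RMN033 the titles gave KO and the descriptions gave WT, and for RMN036 and RMN037 the reverse. The codes form an earlier run (RMN030 to RMN033) and a later run (RMN036 to RMN039). Run here means only a stretch of consecutive code numbers. Earlier and later refer to these numbers, not to a known date, sequencing run or batch. By description the genotype coincided with the run, so genotype and run cannot be told apart there or in the 4 undisputed libraries. By title each genotype had 2 libraries in each run. Every comparison is therefore given for both readings, for the undisputed libraries and within each run. None is preferred.

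Libraries held 11051402 to 18966195 counts. Langerhans cell markers were high in all 8, with Cd207 at 9710 to 12000 CPM (counts scaled to a library total of 1000000) and Epcam at 558 to 672 CPM. Ezh2 transcript was present in all, at 15.7 to 22.4 CPM in WT and 10.5 to 15.2 CPM in KO by title, without overlap, and at 14.9 to 22.4 CPM in WT and 10.5 to 19.0 CPM in KO by description, with overlap. RMN030 and RMN031 stood apart in T cell transcripts: 15 markers summed to 319 to 342 CPM there and to 42.1 to 55.9 CPM in the other 6 libraries, and 13 of the 15 were higher in both than in every other library. The defining receptor genes Cd3e and Trbc2 ranged from 0 to 7.33 and from 0.899 to 55.3 CPM. Summed B cell markers were also higher in RMN030 and RMN031 (1.83 to 1.99 against 0 to 0.672 CPM). So were summed monocyte and macrophage markers (2810 to 2980 against 2200 to 2730 CPM), though 0 of those 10 markers were higher in both singly. Summed erythroid markers were lower in both (123 to 151 against 225 to 1360 CPM). The runs also differed in mitochondrial counts, with 1.02 to 1.87% in the earlier and 3.76 to 4.03% in the later run, in summed erythroid markers, with 123 to 227 against 581 to 1360 CPM, in fibroblast markers, with 37.0 to 62.8 against 119 to 199 CPM, and in mast cell markers, with 31.1 to 43.3 against 46.2 to 65.6 CPM. The part of these differences in the results below was not tested except where values without RMN030 and RMN031 are given.

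Interferons are secreted cytokines that cells release on sensing viral nucleic acid or on immune activation. Type I interferons bind the IFNAR receptor and, through JAK1 and TYK2, activate a complex containing STAT2 and IRF9 that binds the interferon-stimulated response element (ISRE) in target promoters. Interferon gamma acts through a different element, the gamma-activated sequence (GAS). The target genes include sensors of viral RNA, enzymes and membrane proteins that restrict viruses, GTPases that attack intracellular pathogens, and feedback regulators of the pathway itself. Langerhans cells face the skin surface and are among the first immune cells to meet viruses that enter there.

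Promoters from RefSeq (GRCm38.p6, from 250 bases before to 50 after the transcription start) were matched by symbol for 33 of the 44 genes. The ISRE core was searched as GAAANNGAAA on both strands, which reads TTTCNNTTTC on the other strand, with overlapping matches counted. It was found in 20 of the 33 (60.6%), against 1079 of 27025 genes in the whole promoter table (3.99%). The GAS core, TTCNNNGAA, reads the same on both strands and was found in 11 of the 33 (33.3%), against 9.55% of all genes. Windows before the start of 10 of the genes described below are printed to show the element. They were taken only from promoters with a match before the start, and not all promoters of the set had one. Each is the strand of the gene from 5′ to 3′, and capitals mark every ISRE core match in the window.
Isg15, chr4:156200850-156200909, minus strand: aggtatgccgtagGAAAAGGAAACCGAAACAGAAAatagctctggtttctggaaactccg
Ifit1, chr19:34640779-34640838, plus strand: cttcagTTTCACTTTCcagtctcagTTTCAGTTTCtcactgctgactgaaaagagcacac
Ifit3, chr19:34583382-34583441, plus strand: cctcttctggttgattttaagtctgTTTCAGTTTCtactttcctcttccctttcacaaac
Ifitm2, chr7:140955973-140956032, minus strand: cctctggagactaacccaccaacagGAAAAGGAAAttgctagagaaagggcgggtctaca
Oas1a, chr5:120907526-120907564, minus strand: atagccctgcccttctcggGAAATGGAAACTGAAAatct
Oas1g, chr5:120887614-120887650, minus strand: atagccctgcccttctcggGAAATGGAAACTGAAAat
Oas3, chr5:120777700-120777759, minus strand: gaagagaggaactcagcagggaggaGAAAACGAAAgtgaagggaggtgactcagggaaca
Rsad2, chr12:26456538-26456597, minus strand: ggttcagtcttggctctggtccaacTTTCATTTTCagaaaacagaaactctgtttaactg
Stat2, chr10:128270251-128270310, plus strand: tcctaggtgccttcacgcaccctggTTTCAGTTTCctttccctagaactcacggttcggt
Igtp, chr11:58199497-58199555, plus strand: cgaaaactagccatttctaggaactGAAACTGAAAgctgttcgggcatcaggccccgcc

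The Isg15 window held 3 overlapping matches and those of Ifit1, Oas1a and Oas1g held 2 each. All 37 bases of the Oas1g window occurred unchanged in that of Oas1a. The distance from the match nearest the start to the start itself ranged from 12 bases (Oas1g) to 222 bases (Stat2) among those printed. By level in these cells, the ISRE core was present in 9 of 12 promoters of genes averaging at least 10 CPM (75%), in 9 of 16 of those from 1 to under 10 CPM (56.2%), and in 2 of 5 of those under 1 CPM (40.0%). A match is a description of the letters and not evidence of binding.

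Most of the set was weakly counted in these cells. Averaged over the 8 libraries, 16 genes reached at least 10 CPM, 18 lay from 1 to under 10 CPM and 10 lay under 1 CPM. In every library 33 genes had counts, and 11 were at 0 in at least 1 library. The 10 lowest were Ifit2, Ifit3, Zbp1, Mx1, Mx2, Cmpk2, Gbp5, Iigp1, Ifi47 and Rtp4. Mx2 is annotated as a polymorphic pseudogene. Ifit3 is often used as a marker of an interferon response. Isg15, which encodes a ubiquitin-like modifier and is another such marker, lay between 0.269 and 2.44 CPM.

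To compare genes with each other, CPM were divided by exon length in kilobases. Ifitm2 was highest, at 104 ± 27.7 CPM per kb (SD, n = 8 libraries of both genotypes), followed by Ifitm3 at 37.5 ± 5.56. Both encode small membrane proteins that block the entry of enveloped viruses. The ranges of these did not overlap (71.3 to 158 against 27.7 to 43.0 CPM per kb), nor did that of Ifitm3 overlap with the next, Ifi27 (15.6 to 23.5 CPM per kb). Ifi27 (19.5 ± 2.53), Stat2 (15.1 ± 2.23) and Oas1a (12.4 ± 3.49 CPM per kb) overlapped with their neighbours in this order. At the bottom were Mx1 at 0.0714 and Gbp5 at 0.00936 CPM per kb. Read sharing limits the Ifitm2 level, since 36.1% of the 50-base stretches of its transcripts also occur in Gm45717, an overlapping gene model on the same strand.

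**Figure D1:**
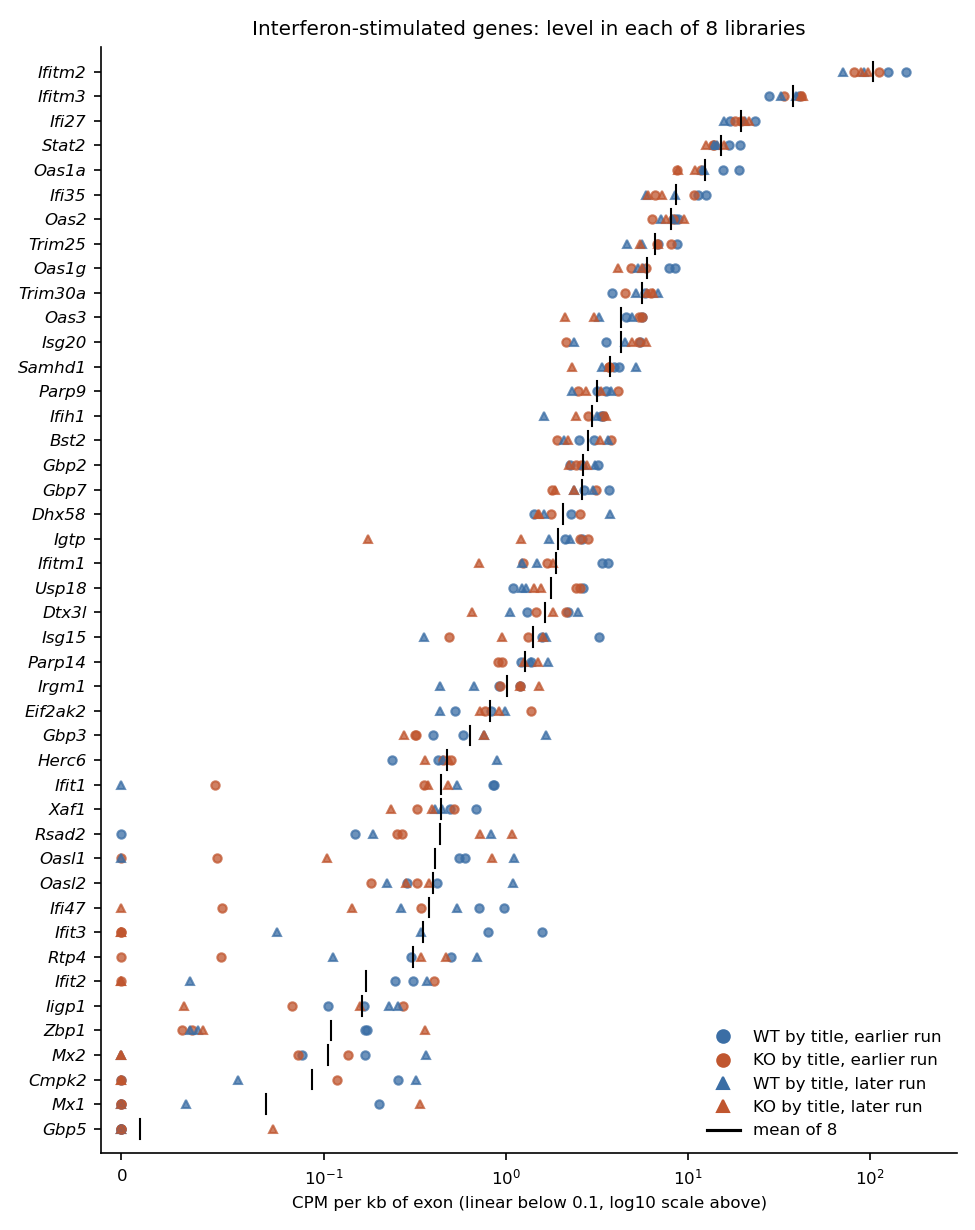
Level of each of the 44 genes (vertical axis, ordered by mean) in CPM per kb of exon (horizontal axis, linear below 0.1 and log10 above). Points are libraries, coloured by title genotype and shaped by run, and black ticks are means of 8. Ifitm2 stands at the top (mean 104), and 11 genes have a library at 0.

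Summed over the 44 genes, the level was 657 and 660 CPM in RMN030 and RMN031, 535 and 569 CPM in RMN032 and RMN033, and 510, 560, 530 and 518 CPM in RMN036 to RMN039. RMN030 and RMN031 were the highest and the other 6 libraries lay together. By title the sums were 597 ± 74 CPM in WT and 538 ± 22 CPM in KO (SD, n = 4 each), and the groups overlapped. In such bulk samples fewer cells of a type and less RNA per cell cannot be told apart.

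By title, no gene of the set passed the threshold for a difference between KO and WT. The test was edgeR's quasi-likelihood test, with Benjamini-Hochberg adjustment over all 14630 genes tested and a threshold of 0.05. It called 0 of the 38 genes of the set that had enough counts, with 6 filtered out for low counts, and 0.0% of all genes. DESeq2 and limma voom also called 0 of the set. At an unadjusted p under 0.05 there were 2 of 38 (5.26%), Oas1a and Ifi47, against 4.59% of all genes, both lower in KO (2.41% of all genes were lower and 2.18% higher at that p). The estimates lay on the lower side in KO: 28 were below 0 and 10 above (73.7% below, against 50.6% of all genes), with a median log2 fold change of -0.27 against -0.0033 for all genes. Without RMN030 and RMN031 the median was -0.05, with 23 of 38 below 0. For all 16 genes of at least 10 CPM, the 95% confidence interval of the log2 fold change stayed between -0.98 and 0.59, which is within 2-fold either way. The interval left out 0 for 1 of them, Oas1a. All 4 KO libraries lay below all 4 WT libraries for 1 of 38, again Oas1a (1.53% of all genes), and above for 0 (1.41% of all genes).

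**Figure D2:**
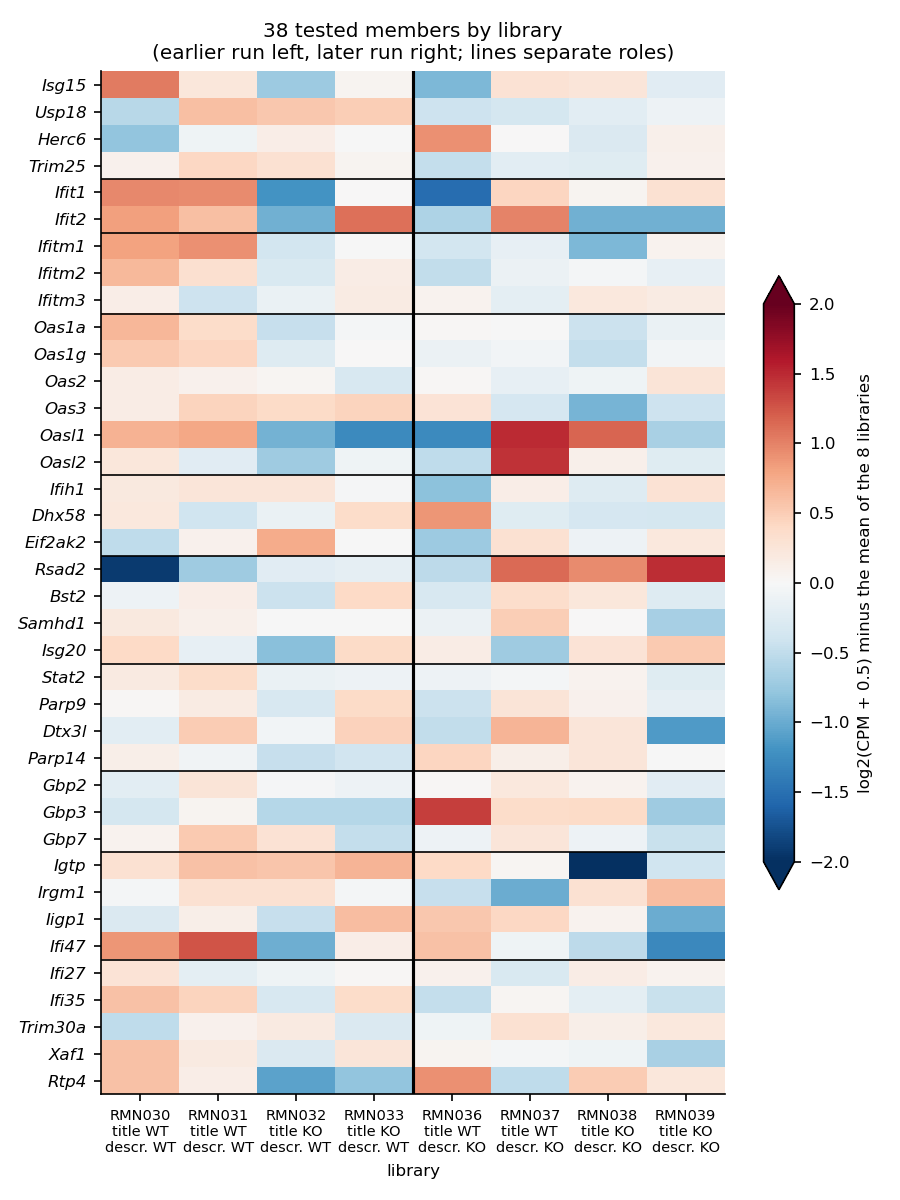
Deviation of each of the 38 tested genes (vertical axis, grouped by role) from its mean over the 8 libraries (horizontal axis), as log2(CPM + 0.5). Colour gives the deviation in log2 units. RMN030 and RMN031 are above the mean for many genes, and the KO columns do not share 1 colour.

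By description the count was also 0 of 38, beside 2.02% of all 14630 genes. DESeq2 and limma voom called 0. Unadjusted p was under 0.05 for 5 of 38 (13.2%, against 12.6% of all genes): Oas3, Ifitm2, Trim25 and Ifi35 were lower and Rsad2 higher in KO, where 5.8% of all genes were lower and 6.84% higher. The median log2 fold change was -0.12, with 22 genes below 0 (57.9%, against 51.1% of all genes) and 16 above. Without RMN030 and RMN031 it turned to 0.04, with 15 of 38 below 0. Intervals of 14 of the 16 genes of at least 10 CPM stayed within 2-fold. The interval left out 0 for 4 of the 16, Oas3, Ifitm2, Trim25 and Ifi35. No gene of the set had KO libraries all above or all below WT, which held for 3.74% and 5.09% of all genes.

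In the 4 undisputed libraries, edgeR called 0 of 40 genes of the set, beside 0.794% of all 14727 genes. The smallest adjusted p was 0.0848, for Ifit3. DESeq2 called 1, Ifit3 (adjusted p = 0.0191), and limma voom 0. Unadjusted p was under 0.05 for 10 of 40 (against 11.3% of all genes). Of these, 9 (22.5% of 40, against 5.32% of all genes) were lower in KO, namely Oas3, Oas1g, Oas1a, Ifitm2, Ifi47, Igtp, Ifi35, Ifit2 and Ifit3, and Rsad2 was higher (5.93% of all genes). Estimates were below 0 for 26 of 40 (65%, against 50.2%). Both KO libraries lay below both WT libraries for 16 of 40 (40%, against 25.2%) and above for 4, Trim30a, Ifitm3, Irgm1 and Rsad2 (16.9% of all genes). Both WT libraries here are the ones with T cell transcripts, and both KO libraries are from the later run.

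Within the earlier run, the title contrast compared RMN032 and RMN033 with RMN030 and RMN031. It called 0 of 41 genes of the set by edgeR, beside 0.186% of all 16146 genes, while DESeq2 called 1, Ifit3 (adjusted p = 0.049), and limma voom 0. Unadjusted p was under 0.05 for 7 of 41 (17.1%, against 6.71% of all genes), all lower in KO (3.76% of all genes were lower and 2.95% higher): Oasl1, Oas1g, Oas1a, Ifitm2, Stat2, Rtp4 and Ifit3. Both KO libraries lay below both WT libraries for 16 of 41 (39.0%, against 16.7% of all genes), and above for 2, Herc6 and Rsad2 (20.6% of all genes). The median log2 fold change was -0.30, with 31 of 41 below 0 (75.6%, against 51.1% of all genes).

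Within the later run, RMN038 and RMN039 were compared with RMN036 and RMN037. edgeR called 0 of 41 and 0.0% of all genes, and DESeq2 and limma voom also 0. Unadjusted p was under 0.05 for 5 of 41 (12.2%, against 7.83%): Oas3, Igtp, Ifit2 and Ifit3 were lower (4.52% of all genes) and Irgm1 was higher in KO (3.31%). Libraries separated downwards for 10 of 41 (24.4%, against 21.0%) and upwards for 4, namely Usp18, Isg20, Ifitm3 and Irgm1 (16.7% of all genes). The median was -0.10, with 23 of 41 below 0 (56.1%, against 50% of all genes), and its sign turned on single libraries: it was 0.07 without RMN037, 0.01 without RMN039 and -0.25 without RMN036. Among the 16 genes of at least 10 CPM, 13 were below 0 in the earlier run (median -0.25), against 50.1% of all genes of that level. In the later run 7 were below 0 (median 0.03), against 49.9% of all genes of that level.

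The difference between the 2 runs' contrasts was itself tested. edgeR called 0 of 41, beside 0.0186% of all genes, and DESeq2 and limma voom called 0. Unadjusted p was under 0.05 for 3 of 41 (7.32%, against 7.93%), Ifitm2, Stat2 and Irgm1, all with a higher contrast in the later run (4.05% of all genes, and 3.88% lower). Of the 16 genes of at least 10 CPM, 13 had a higher contrast in the later run and 3 a lower one (median difference 0.40). Of all 8515 genes of that level, 50.9% had a lower contrast in the later run (median difference -0.0075). Over all 41 the contrast was lower there for 18 (43.9%, against 50.2% of all genes). The median over the 41 was 0.11. With single libraries left out, the median over the tested genes of the set ranged from -0.01 (without RMN038) to 0.42 (without RMN033 or without RMN037).

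**Figure D3:**
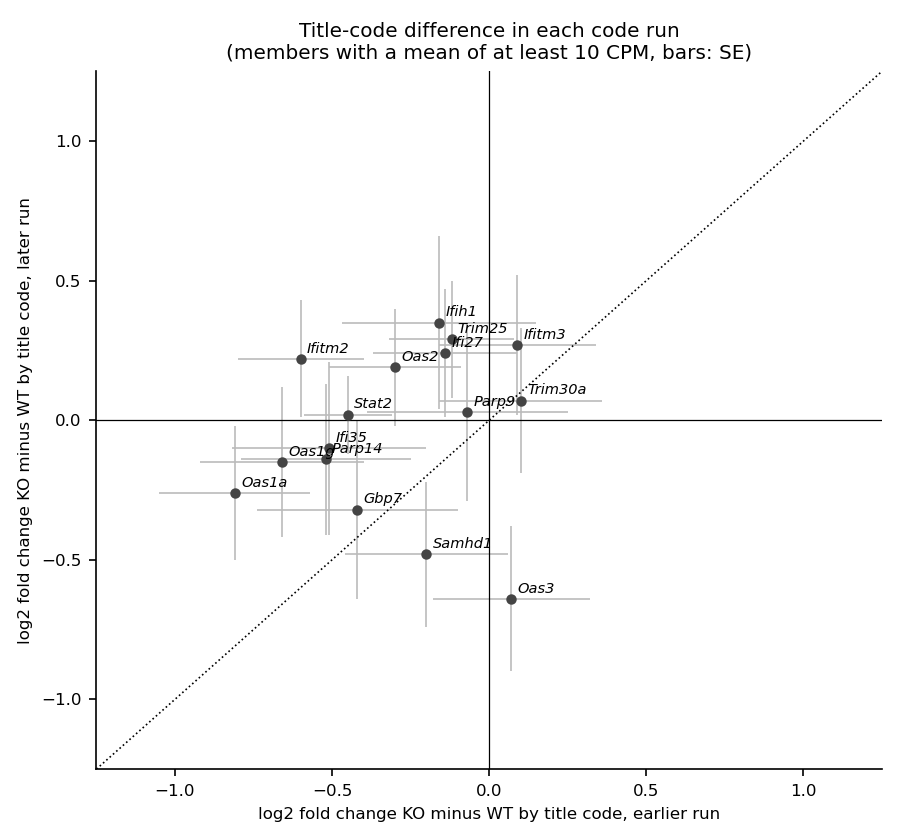
KO minus WT log2 fold change by title in the later run (vertical axis) against the earlier run (horizontal axis) for the 16 genes of at least 10 CPM, with SE as bars and a dotted line of equality. In the earlier run 13 lie left of 0 (50.1% of all genes of that level were below 0), and in the later run 7 lie under 0 (49.9%).

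Only Oas1a, Ifi47 and Ifit3 had both KO libraries below both WT libraries in each run by title (3 of 41, 7.32%, against 3.51% of all genes), and no gene of the set had the opposite order in both runs (3.21% of all genes). In the sentences on single genes that follow, CPM are listed in the order RMN030, RMN031, RMN032, RMN033 for the earlier run and RMN036, RMN037, RMN038, RMN039 for the later run. By title the first 2 of each run are WT and the last 2 are KO.

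Oas1a encodes an oligoadenylate synthetase, an enzyme that answers double-stranded RNA by making a second messenger of antiviral defence. It was at 36.1, 29.5, 16.4 and 22.1 CPM in the earlier run and at 23.0, 22.6, 16.7 and 20.6 CPM in the later run. All 4 KO libraries by title lay below all 4 WT libraries, but the gap in the later run was small beside the excess of RMN030 and RMN031. The title means were 27.8 ± 6.4 CPM in WT and 19.0 ± 2.9 CPM in KO (SD, n = 4). The log2 fold change was -0.56 (SE 0.20, edgeR adjusted p = 0.998). Since Oas1a and Ifit3 are shown for this order of their libraries, an exact two-sided permutation test on CPM only restates it: p = 0.0286 for both, the smallest that 4 against 4 allows. The KO minus WT difference was -8.84 CPM, and -3.84 CPM without RMN030 and RMN031. By run, the log2 fold change was -0.81 (SE 0.24) in the earlier and -0.26 (SE 0.24) in the later.

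The closest copy is Oas1g, its neighbour on chromosome 5 (Oas1a at chr5:120896256-120907521 and Oas1g at chr5:120876142-120887613, GRCm38). Of the 50-base stretches of Oas1a transcripts, 57.6% also occur in Oas1g, and 45.2% of those of Oas1g occur in Oas1a, so their separate levels are uncertain. Oas1g was at 19.9, 18.5, 11.4 and 13.8 CPM and then at 12.5, 13.2, 9.66 and 13.1 CPM, again highest in RMN030 and RMN031, with overlapping genotypes in the later run.

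Oas3, another synthetase, differed from this in the earlier run. It was at 32.1, 39.5, 38.1 and 39.5 CPM in the earlier run and at 34.9, 22.8, 14.9 and 21.6 CPM in the later. The earlier run was level, and the later run was lower except for RMN036. By description the means were 37.3 ± 3.5 CPM in WT and 23.6 ± 8.3 CPM in KO, with a log2 fold change of -0.62 (SE 0.21, edgeR adjusted p = 0.192). Without RMN036 it was -0.87 (edgeR adjusted p = 0.0429), the 1 case by description in which leaving out a library gave a call. By title the estimate was -0.19 (SE 0.27). All 6 genes of the synthetase family, with Oas2, Oasl1 and Oasl2, had title estimates below 0 (-1.17 to -0.05), against 50.6% of all genes. By description 3 were above 0 and 3 below, where 51.1% of all genes were below. Oas1a and Oas1g share sequence, so the 6 estimates are not independent.

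The IFIT proteins bind viral RNA that lacks the marks of host messenger RNA. Their genes lie together on chromosome 19, with Ifit3 at chr19:34583531-34588731. Ifit3 had 36, 26, 0 and 0 counts in the earlier run and 2, 10, 0 and 0 in the later, or 2.75, 1.40, 0.134 and 0.599 CPM in the 4 WT libraries by title and 0 in all 4 KO libraries. Against a floor of 3 counts over the KO group, which a count of 0 allows, KO was at least 23.6-fold lower by title, at least 23.0-fold lower in the earlier run and at least 3.19-fold lower in the later run. These bounds cover counting error only, and 60.1% of counts from 1 to 20 in the table were even. Whether both mates of a read pair were counted is not stated in the labels or the file, and the bounds would be lower if they were.

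Ifit3 was filtered out for low counts in the edgeR fit by title. The KO minus WT difference was -1.22 CPM, and -0.367 CPM without RMN030 and RMN031. By description the gene was counted in both genotypes, since RMN036 and RMN037 are then KO. Its near copy Ifit3b, with which 51.2% of its 50-base stretches are shared, had 14, 10, 0 and 0 counts and then 2, 2, 0 and 0, so counts of either gene are uncertain.

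The other IFIT genes were not at 0 in the same libraries. Ifit1 was at 2.29, 2.26, 0.123 and 0.949 CPM and then at 0, 1.44, 0.994 and 1.27 CPM, highest in RMN030 and RMN031, with overlapping genotypes in the later run. By title its log2 fold change was -0.85 (SE 0.95, edgeR adjusted p = 0.998). Ifit2 was at 1.22, 0.97, 0 and 1.58 CPM and then at 0.134, 1.44, 0 and 0 CPM. Both undisputed KO libraries were at 0, which makes KO at least 9.0-fold lower over the floor of 3 counts, but RMN033, a KO library by title, held the highest value.

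Ifi47 encodes an immunity-related GTPase, 1 of a family that acts on the vacuoles of intracellular pathogens. It was at 1.76, 2.42, 0.123 and 0.844 CPM in the earlier run and at 1.34, 0.659, 0.355 and 0 CPM in the later. KO by title lay lower in each run, though RMN033 lay above RMN037. The log2 fold change by title was -2.15 (SE 0.85, edgeR adjusted p = 0.998). Ifi47 lies within the span of the gene model Olfr56 on the same strand, so reads of these models could be split or lost.

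Relatives of Ifi47 went other ways. Irgm1, a regulator of these GTPases, was at 5.35, 6.95, 6.92 and 5.38 CPM and then at 3.90, 2.52, 6.96 and 8.78 CPM. The KO libraries were above WT in the later run and level with WT in the earlier. The later-run log2 fold change was 1.32 (SE 0.38, edgeR adjusted p = 0.422) and the earlier-run value -0.05 (SE 0.37), a difference of 1.37 (SE 0.53, edgeR adjusted p = 0.548). Igtp was at 4.28, 5.28, 5.15 and 5.69 CPM and then at 4.57, 3.48, 0.355 and 2.44 CPM, with RMN038 far under the rest. Its later-run log2 fold change was -1.53 (SE 0.68, edgeR adjusted p = 0.635), and 11.8% of its 50-base stretches are shared with the overlapping Irgm2.

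**Figure D4:**
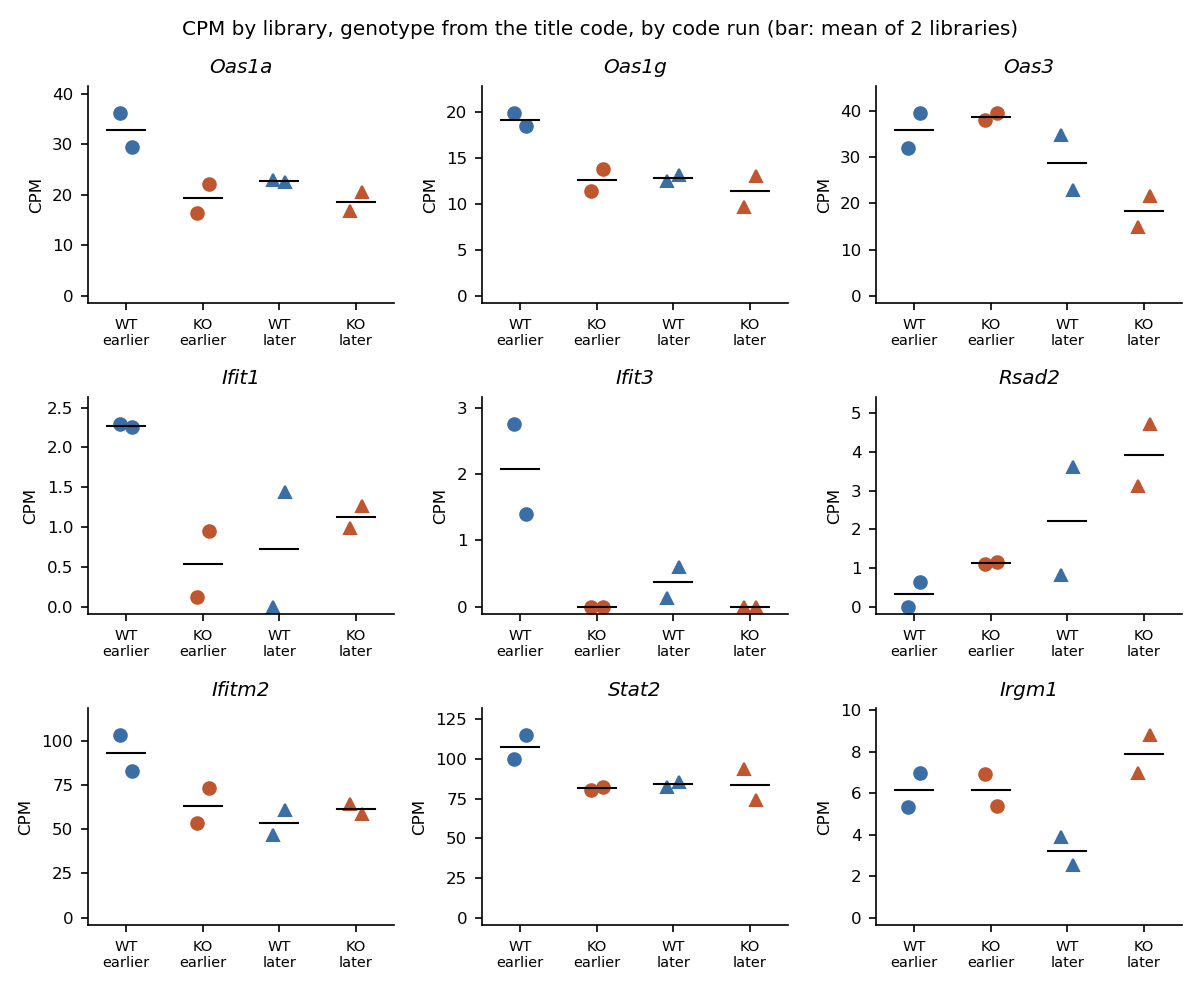
CPM (vertical axis) of 9 single genes in each library, split on the horizontal axis into WT and KO by title within the earlier and the later run. Points are libraries and bars are means of 2. Oas1a spans 16.4 to 36.1 CPM and is lower in KO in each run, and Irgm1 is at 6.96 and 8.78 CPM in KO against 3.90 and 2.52 CPM in WT of the later run.

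Ifitm2 was at 103, 82.6, 53.5 and 73.0 CPM and then at 46.7, 60.6, 64.1 and 58.7 CPM. RMN030 and RMN031 were highest, and within the later run the genotypes overlapped. The log2 fold change by title was -0.60 (SE 0.20, edgeR adjusted p = 0.551) in the earlier and 0.22 (SE 0.21, edgeR adjusted p = 0.853) in the later run. The difference between these, 0.83 (SE 0.29), had the smallest adjusted p of the set for that contrast (0.503 by edgeR). Ifitm3 lay between 18.8 and 29.1 CPM, lowest in RMN031, and Ifitm1 between 0.781 and 3.99 CPM, highest in RMN030 and RMN031.

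Stat2, the subunit of the ISRE-binding complex that type I interferon activates, was the most counted signalling gene of the set. It was at 100, 115, 80.8 and 82.7 CPM and then at 82.5, 85.8, 93.5 and 74.4 CPM. RMN030 and RMN031 were highest, and the remaining libraries overlapped across genotypes. Its log2 fold change was -0.22 (SE 0.13) by title and -0.13 (SE 0.13) by description, with a 95% interval of -0.49 to 0.06 by title. Parp9 and Parp14, which encode proteins of the PARP family of ADP-ribosyltransferases, and Dtx3l, which encodes a ubiquitin ligase partner, had title estimates from -0.30 to -0.02. Parp9 and Dtx3l overlap by 682 bases on opposite strands, and without a stated strand setting their reads there cannot be told apart.

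Among genes of ubiquitin-like conjugation, Trim25, a ubiquitin ligase of the RIG-I pathway, was at 39.6, 50, 46.3 and 39.0 CPM and then at 26.6, 32.3, 31.4 and 39.5 CPM. The later run was lower in 3 of 4 libraries, and the title genotypes overlapped in both runs. The log2 fold change was 0.07 (SE 0.19) by title and -0.39 (SE 0.15, edgeR adjusted p = 0.274) by description. Usp18, the protease that removes ISG15 and restrains the receptor, lay between 3.05 and 7.38 CPM, and Herc6, the ligase that attaches ISG15 in mice, between 2.21 and 8.34 CPM.

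Nucleic acid sensors showed no common direction. Ifih1, which encodes the double-stranded RNA sensor MDA5, was at 27.1, 28.0, 27.9 and 23.1 CPM and then at 13.2, 25.8, 19.7 and 29.0 CPM. RMN036 was the lowest, and the other libraries overlapped. Its log2 fold change was 0.08 (SE 0.23) by title and -0.24 (SE 0.22) by description. Dhx58, the gene of the related LGP2, lay between 4.69 and 12.2 CPM and Eif2ak2, which encodes the RNA-activated kinase PKR, between 2.22 and 7.05 CPM. Zbp1, a sensor of Z-form nucleic acid, lay between 0.105 and 1.27 CPM.

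Rsad2 (viperin), an antiviral enzyme that makes a chain-terminating nucleotide, ran against most of the set. It was at 0, 0.646, 1.10 and 1.16 CPM in the earlier run and at 0.807, 3.60, 3.13 and 4.71 CPM in the later. The later run was higher except for RMN036, which overlapped with the earlier run. By description the log2 fold change was 2.09 (SE 0.77, edgeR adjusted p = 0.234), in the undisputed libraries 3.52 (SE 1.05, edgeR adjusted p = 0.203) and by title 0.99 (SE 0.92, edgeR adjusted p = 0.998). Isg20, an RNA exonuclease, was at 10.1, 6.63, 3.98 and 10.0 CPM and then at 8.34, 4.38, 9.16 and 11.0 CPM, with overlapping genotypes by either reading. Samhd1, which limits nucleotide supply, lay between 21.1 and 47.3 CPM and Bst2, the tether of budding virions, between 1.72 and 3.43 CPM. Mx1, Mx2 and Cmpk2 were each at 0 in 3 libraries or more and at most 1.34 CPM.

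Gbp2, a guanylate-binding protein gene that interferon gamma induces, was among the steadiest genes, at 5.65, 8.08, 6.5 and 6.12 CPM and then at 6.72, 7.79, 7.03 and 5.61 CPM. Genotypes overlapped by both readings, with log2 fold changes of -0.17 (SE 0.23) by title and 0.09 (SE 0.23) by description. Gbp7 lay between 10.1 and 20.8 CPM and Gbp3 between 0.905 and 5.45 CPM. Gbp5 was counted in 1 library, RMN038, at 0.497 CPM. Ifi27 was similarly level, at 34.4, 24.8, 26.7 and 28.8 CPM and then at 30.1, 23.0, 31.6 and 29.9 CPM, with a title log2 fold change of 0.05 (SE 0.17). Ifi35 lay between 10.2 and 21.8 CPM, highest in RMN030 and RMN031, and Trim30a between 15.8 and 28.2 CPM.

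**Figure D5:**
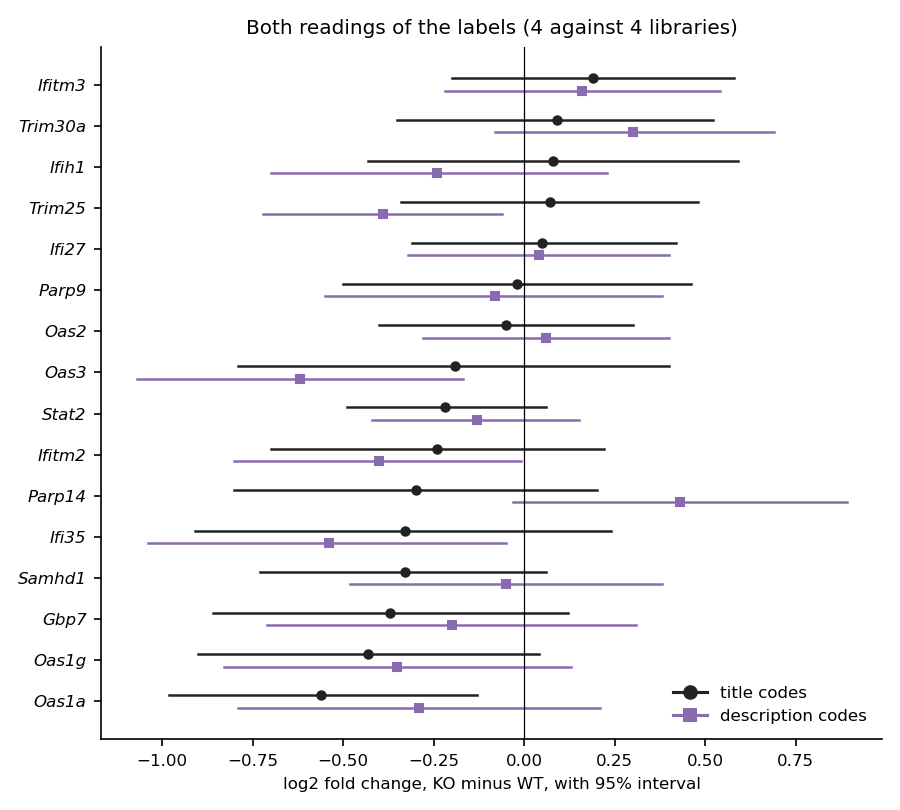
KO minus WT log2 fold change (horizontal axis) with 95% confidence intervals for the 16 genes of at least 10 CPM (vertical axis), by title and by description. By title all intervals lie within -0.98 to 0.59 and 1, that of Oas1a, leaves out 0. By description they lie within -1.07 to 0.89 and 4 leave out 0.

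At the median, the 16 genes of at least 10 CPM varied more between libraries than all genes of at least 10 CPM. The ratio of the highest to the lowest library had a median of 1.98 (1.5 to 2.65) among them, against 1.63 among all 8515 genes of at least 10 CPM. Ifitm3, Oas2, Stat2 and Ifi27 lay below that median of all genes, at 1.5 to 1.55. The comparison was not matched for level above 10 CPM. RMN030 held the highest value for 5 of the 16 (17.7% of all genes of that level) and RMN031 for 4 (11.4%), and RMN036 the lowest for 5 (12.7%).

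Genes upstream in the pathway and further target genes were examined from 5 lists. Of 11 interferon genes, 5 were in the table and none was tested, with a summed level of at most 0.659 CPM in any library. All 6 receptor genes were tested and 0 called by title, by description or in either run. The shares of all genes called were 0.0% by title, 2.02% by description, 0.186% in the earlier run and 0.0% in the later run. Ifnar1, a chain of the type I receptor, lay between 232 and 291 CPM. By title the smallest p among receptors belonged to Ifnar2 (log2 fold change 0.25, SE 0.11, edgeR adjusted p = 0.998) and Ifngr1 (0.33, SE 0.16, edgeR adjusted p = 0.998), and by description to Ifngr1 (-0.45, SE 0.13, edgeR adjusted p = 0.132) and Ifnar1 (-0.09, SE 0.10, edgeR adjusted p = 0.781).

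Of 13 signalling genes, 0 were called by title, by description or in either run, beside the same shares of all genes. Irf9, the DNA-binding partner of STAT2, had a title log2 fold change of -0.53 (SE 0.20) and Ptpn11 of -0.25 (SE 0.13). By description Socs3 and Socs1, feedback inhibitors, had -0.30 (SE 0.09) and 0.64 (SE 0.20). Of 14 nucleic acid receptors and adaptors in the table, 0 were called, again beside these shares. By title Myd88 had 0.27 (SE 0.11), and by description Ikbke had -0.67 (SE 0.21) and Adar -0.52 (SE 0.17). Over the 5 lists, 8 of 81 tested genes (9.88%, against 4.59% of all genes) had an unadjusted p under 0.05 in edgeR by title, 5 higher and 3 lower. By description it was 16 of 81 (19.8%, against 12.6% of all genes), 7 higher and 9 lower.

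Further interferon-stimulated genes outside the set gave 1 call, in the earlier run, where 0.186% of all 16146 genes were called. Of 67 listed, 63 were in the table and 55 tested there. Gbp4, a guanylate-binding protein gene, was at 7.79, 13.3, 1.04 and 0.844 CPM in the earlier run and at 2.69, 1.62, 1.63 and 3.08 CPM in the later. It fell in the earlier run (log2 fold change -3.52, SE 0.54, edgeR adjusted p = 0.0430), and in the later run the value was 0.15 (SE 0.51, edgeR adjusted p = 0.976). RMN030 and RMN031 were again highest. By title over all libraries Gbp4 had -1.95 (SE 0.64) and Phf11d 0.91 (SE 0.31), and by description Tgtp2 had -3.74 (SE 0.94, edgeR adjusted p = 0.0605) and Gvin1 3.20 (SE 0.96).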

How the data were processed

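The authors deposited raw counts of reads per gene for 8 libraries. The aligner STAR 2.5.2b, the counter featureCounts 1.5.0 and the build GRCm38 (mm10) are named in the submitters' processing notes. Not given in the sources used here are the annotation release, the strand setting and how mates were counted. Of the gene identifiers, 25080 matched a symbol and 167 did not, and 0 columns were left unused. CPM are counts scaled to a column total of 1000000. Coordinates, exon lengths and transcripts came from a GENCODE annotation of GRCm38.

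Tests were run in R 4.3.3 with edgeR 4.0.16 (filterByExpr, TMM, robust quasi-likelihood fits, two-sided), KO minus WT, adjusted over all tested genes. The contrasts within runs came from 1 model of 4 groups. Standard errors derive from the F statistic. DESeq2 1.42.0 and limma 3.58.1 (voom), other filters and scaling, each library left out, a replicate block, the run as a covariate, and fits without RMN030 and RMN031 were alternatives. Simulated data with known changes were used to test the edgeR fits. No test over the list as a whole was made.

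The 45 genes and the pathway lists were chosen with earlier results of these data known. Genes shown in every library were those past 0.05, those separated the same way in both runs by title, the 2 smallest p per comparison, and the highest per kb in each of 10 roles. Oas1g was added after its values were seen. Isg15, given by its range and its promoter window, was also chosen after its values were seen. From each pathway list, genes past 0.05 and the 2 with the smallest p by each reading are named, except 1 that is not reported here.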

Additional observations from a re-analysis of the deposited data

Results flagged for a closer look

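For 16 of the genes shown in every library, 64 groups of 4 libraries were examined for a library far from the other 3, and 3 had one. A nominal rate of 1 in 20 would give 3.2. The groups of both readings reuse the same libraries and are not independent, so that figure is only a rough guide. Ifit2 in RMN033 was at 1.58 CPM, while the other 3 libraries that are KO by title were at 0. Ifit2 in RMN037 was at 1.44 CPM, against 0 to 0.134 CPM in the other KO libraries by description. Ifih1 in RMN036 was at 13.2 CPM, against 25.8 to 28.0 CPM in the other WT libraries by title.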

How the results depend on the processing

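The count of genes of the set called by title, within the later run and for the difference between runs was 0 under every alternative that was run. In the undisputed libraries it was 3 with no filter on low counts (Oas3, Rsad2 and Ifit3, beside 1.9% of all genes), 1 with DESeq2 (Ifit3, beside 2.07%), and 0 to 3 with a library left out: 2 without RMN031 (Ifitm2 and Rsad2, beside 4.02%), 3 without RMN038 (Ifi47, Rsad2 and Ifit3, beside 2.2%) and 3 without RMN039 (Oas3, Igtp and Ifit3, beside 2.75%). These shares of all genes were also above the 0.794% of the fit reported. There the lone library left in a group takes its spread from the other genotype. By description it was 0 to 1 with a library left out (Oas3 without RMN036, beside 1.02% of all genes). In the earlier run it was 1 with no filter (beside 0.8% of all genes) and 1 with DESeq2 (beside 0.886%), in both cases Ifit3. The cause of these moves was not tested. Without RMN030 and RMN031 the KO minus WT difference by title turned from -11.0 to 8.69 CPM for Ifitm2 and from -0.665 to 0.114 CPM for Ifit1. With the replicate number as a block, 0 genes of the set were called by title and 0 by description. Same-numbered libraries did not deviate together (correlations of 0.05 to 0.10 by title and -0.01 to 0.03 by description), so the numbers were not treated as pairs. By title the median log2 fold change of the set was -0.29 with the run as a covariate and -0.05 without RMN030 and RMN031, which leaves 2 against 4 libraries. Low counts limit the 10 genes under 1 CPM, of which 6 (Ifit3, Zbp1, Mx1, Mx2, Cmpk2 and Gbp5) had too few to be tested by title.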

Other observations

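RMN030 and RMN031, the libraries with T cell transcripts, were both above the other 6 libraries for 9 of the 44 genes (20.5%): Ifit1, Ifit3, Ifitm1, Ifitm2, Oas1a, Oas1g, Stat2, Ifi47 and Ifi35. Among those of at least 1 CPM it was 7 of 34 (20.6%), against 5.62% of all 13831 genes of that level. This count was made after the values were seen and is a description of these libraries. The part of T cell RNA, or of RNA of other cell types, in it was not tested. Markers of plasmacytoid dendritic cells, known as strong producers of type I interferon, were not uniform: 6 of 8 listed were in the table, 1 of them, Ccr9, was higher in RMN030 and RMN031 (14.5 and 19.0 CPM) than in all others (0 to 1.68 CPM), and Siglech was at 0 in 4 libraries and at most 2.64 CPM. Their sum was 283 to 361 CPM in RMN030 and RMN031 and 318 to 373 CPM in the others.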
